A study of Mus musculus with 21 samples.

Results

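The genes described here, apart from the annotated processed pseudogenes Rpl6l and Rpl32l, encode proteins of the cytosolic ribosome and were measured in mouse quadriceps muscle. They were chosen by symbol from the TPM table (a transcript level corrected for length and scaled to the same total in each library), as every symbol made of Rpl or Rps, a number and at most 1 of the letters a, l or x, together with Rplp0, Rplp1, Rplp2 and Rpsa, and with -ps pseudogenes left out. This gave 83 of 53738 symbols, of which 78 had a mean of at least 1 TPM and were tested, 31 for the small subunit and 47 for the large subunit. The other 5 were Rps4l, listed at 0 in every library, Rpl6l, above 0 in 1 library with 0.0522 TPM, and Rpl32l, Rpl10l and Rpl39l with means of 0.01, 0.05 and 0.28 TPM. RNA was sequenced from the quadriceps of adult male wildtype C57/Bl6 mice in 7 groups of 3 libraries. Sedentary mice neither trained nor exercised, while untrained mice and mice trained by 12 weeks of voluntary wheel running were sampled directly (0 h), 6 h or 72 h after a treadmill run to exhaustion. Replicate 1 of untrained 0 h and replicate 1 of trained 0 h held identical values, so the 21 libraries were 20 distinct ones, and results at 0 h are also given without that shared library. The tissue was whole muscle, which holds muscle fibres and other cells, so fewer cells of a type and less RNA per cell cannot be told apart in any result below.

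The ribosome consists of a small subunit, which reads the messenger RNA, and a large subunit, which joins the amino acids. Nearly every ribosomal protein is present in equal number in the finished particle, and the messenger RNAs of these proteins typically begin with a C followed by a run of pyrimidines, a feature through which mTORC1 signalling sets how strongly they are translated. In striated muscle the common large subunit protein Rpl3 is partly replaced by its paralogue Rpl3l.

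Sequences around the annotated transcription start are shown for 6 members, because this start feature is described for the class and because these members recur below. Rpl35 and Rps15a had single libraries that stood apart, Rps27 and Rps27l are paralogues, and Rps2 and Rpl3l are chromosome neighbours. Each line holds 20 bases before the first listed start and 20 bases from it, from RefSeq on GRCm38.p6. The capitals mark the unbroken run of C and T that contains the annotated first base. Whether the annotated starts are those used in this muscle was not tested.
Rpl35: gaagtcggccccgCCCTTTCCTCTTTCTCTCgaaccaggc
Rps15a: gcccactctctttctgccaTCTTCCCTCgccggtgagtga
Rps27: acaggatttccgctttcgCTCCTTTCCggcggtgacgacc
Rps27l: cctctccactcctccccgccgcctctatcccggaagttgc
Rps2: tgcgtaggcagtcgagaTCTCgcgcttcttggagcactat
Rpl3l: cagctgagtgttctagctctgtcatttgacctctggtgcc
The windows lie at chr2:39005112-39005151 on the minus strand for Rpl35, chr7:118116128-118116167 on the minus strand for Rps15a, chr3:90213629-90213668 on the minus strand for Rps27, chr9:66946066-66946105 on the plus strand for Rps27l, chr17:24720043-24720082 on the plus strand for Rps2 and chr17:24727806-24727845 on the plus strand for Rpl3l. The run was 18 bases long in Rpl35, 9 in Rps15a and Rps27 and 4 in Rps2. The annotated first base of Rps27l and Rpl3l was another base, so no run was marked. A RefSeq start was matched for 61 of the 83 members. A gene was counted for a feature when any of its listed starts had it. A first base C followed by 4 bases that were each C or T was found for 14 of these 61 members (23%), Rpl32l included. The same held for 813 of all 27025 genes (3.01%). A run of at least 10 C or T within 20 bases of the start, on either side, was found for 23 members (37.7%) against 8.61% of all genes. In the 300 bases from 250 before to 50 after the start, searched on both strands, the letters CCGGAAG were present for 25 members (41%) against 9.93% of all genes, GGGCGG for 36 (59%) against 38.2%, AAGATGG for 9 (14.8%) against 7.28% and TATAAA for 7 (11.5%) against 15.7%. CCGGAAG shares its last letters with the first letters of AAGATGG, so a joined copy counts for both motifs. A match is a description of letters, not of binding.

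As transcripts, the members were abundant and lay within a narrow range. Mean levels over the 21 libraries ran from 24.4 TPM for Rpl3 to 605 TPM for Rps29, a ratio of 24.8, with a median of 192 TPM, and 59 of the 78 tested members lay between 100 and 300 TPM. The highest means belonged to Rps29 (605 TPM), the stalk protein Rplp1 (530 TPM), Rps2 (442 TPM), Rps9 (360 TPM) and the stalk base protein Rplp0 (354 TPM). The lowest were Rpl3 (24.4 TPM), Rpl36a (56.1 TPM), Rps27l (74.9 TPM), Rpl17 (77.7 TPM) and Rpl12 (78.0 TPM). The plot of levels shows that the members differed more from each other than most of them differed between libraries. For the median member the highest library was 1.58 times the lowest, and 68 of 78 members stayed under 2-fold. The summed TPM of the large-subunit members was 1.27 to 1.40 times that of the small-subunit members in every library.

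**Figure D1:**
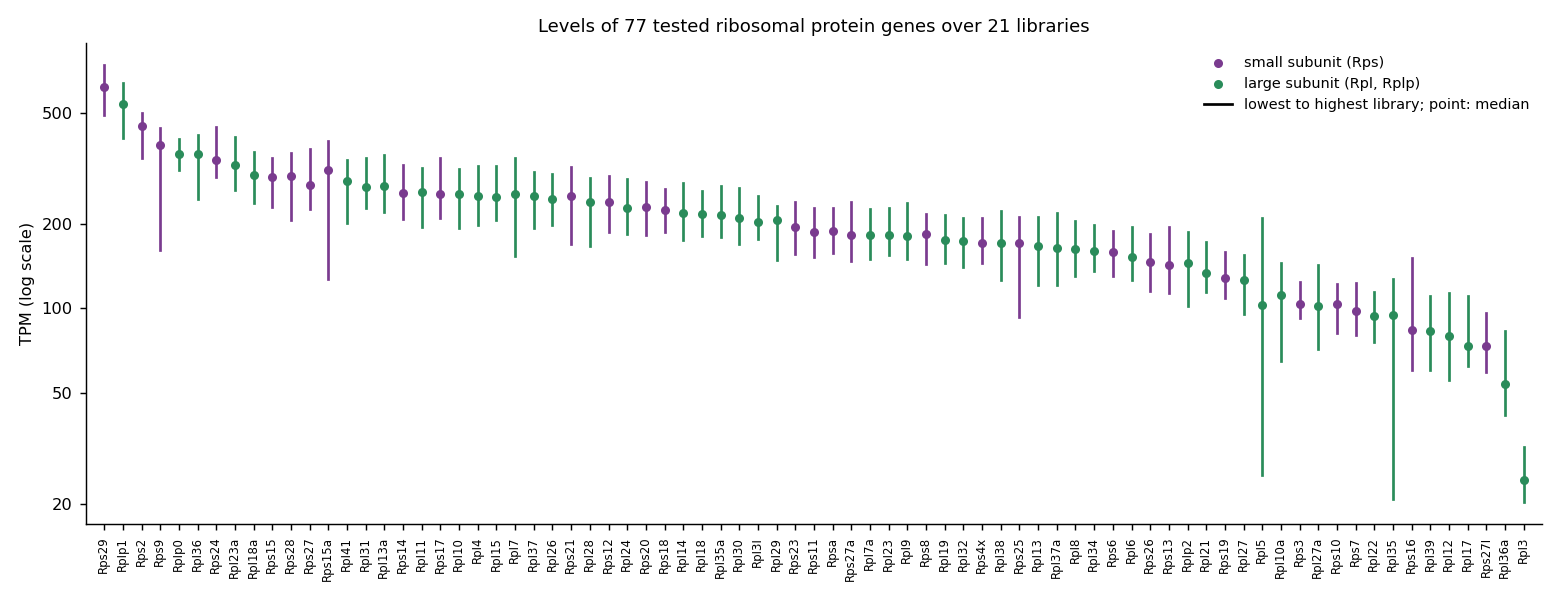
Levels of 77 of the 78 tested members in TPM on a log axis, ordered by mean and coloured by subunit, with the point at the median of 21 libraries and the line from the lowest to the highest library. Means run from 605 TPM for Rps29 to 24.4 TPM for Rpl3, and long lines mark members with single libraries far from the rest, such as Rpl5, Rpl35 and Rps15a.

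The members varied little between mice of a group. Their median within-group SD was 0.114 on the log2 scale, compared with 0.150 over all 11819 tested genes and 0.126 over the 1858 tested genes in the same range of mean TPM. The SD of the 7 group means was 0.154 for the median member, 0.146 for the median of all tested genes and 0.147 for the 1858. Rplp0, Rps3, a small-subunit protein that also takes part in DNA repair, and Rpl3 had the smallest SD of the group means, with 0.0822, 0.103 and 0.111. Rplp0 lay at 336, 327 and 365 TPM in sedentary muscle, 404, 357 and 362 TPM in untrained 0 h, 347, 379 and 335 TPM in untrained 6 h, and 361, 383 and 361 TPM in untrained 72 h. In trained muscle it lay at 404, 357 and 368 TPM at 0 h, 361, 341 and 314 TPM at 6 h, and 344, 313 and 314 TPM at 72 h. Its libraries overlapped between most groups, while at 72 h every trained library was below every untrained one. The largest SDs of the group means, 0.372 for Rpl5, 0.348 for Rpl35 and 0.255 for Rps15a, came with within-group SDs of 0.746, 0.643 and 0.498, and these genes are described with the single libraries that stood apart.

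As a share of all transcripts, the members were highest directly after exercise and lowest in trained muscle at 72 h. In sedentary muscle they summed to 1.54%, 1.52% and 1.69% of all TPM (mean 1.58% ± 0.0957, SD, n = 3). In untrained muscle the shares were 2.00%, 1.68% and 1.79% at 0 h, 1.65%, 1.77% and 1.54% at 6 h, and 1.64%, 1.72% and 1.67% at 72 h. In trained muscle they were 2.00%, 1.68% and 1.70% at 0 h, 1.51%, 1.46% and 1.36% at 6 h, and 1.44%, 1.37% and 1.38% at 72 h. All 3 trained 72 h libraries, and all 3 trained 6 h libraries, lay below the lowest sedentary library, and the library shared by both 0 h groups was the highest of all. Group means with SD (n = 3) were 1.82% ± 0.162 and 1.79% ± 0.177 at 0 h, 1.65% ± 0.115 and 1.44% ± 0.0793 at 6 h, and 1.68% ± 0.0400 and 1.40% ± 0.0406 at 72 h, for untrained and trained muscle in turn. Without the shared library the 0 h means were 1.73% and 1.69% (n = 2).

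Transcripts of the mitochondrial genome moved in the opposite direction. They made up 42.2% to 46.9% of all TPM in sedentary muscle, 37.7% to 40.6% at untrained 0 h, 37.7% to 39.8% at trained 0 h, 40.6% to 43.7% at untrained 6 h, 45.7% to 47.0% at trained 6 h, 42.3% to 44.3% at untrained 72 h and 46.7% to 48.0% at trained 72 h. Within the TPM outside the mitochondrial genome the members held 2.77% to 2.93% in sedentary muscle, 2.82% to 3.21% at untrained 0 h, 2.79% to 3.21% at trained 0 h, 2.72% to 2.97% at untrained 6 h and 2.49% to 2.85% at trained 6 h. At 72 h the range was 2.95% to 2.98% in untrained muscle and 2.59% to 2.75% in trained muscle. On this scale both 0 h groups overlapped sedentary muscle, and at 72 h all trained libraries still lay below all sedentary and all untrained ones.

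**Figure D2:**
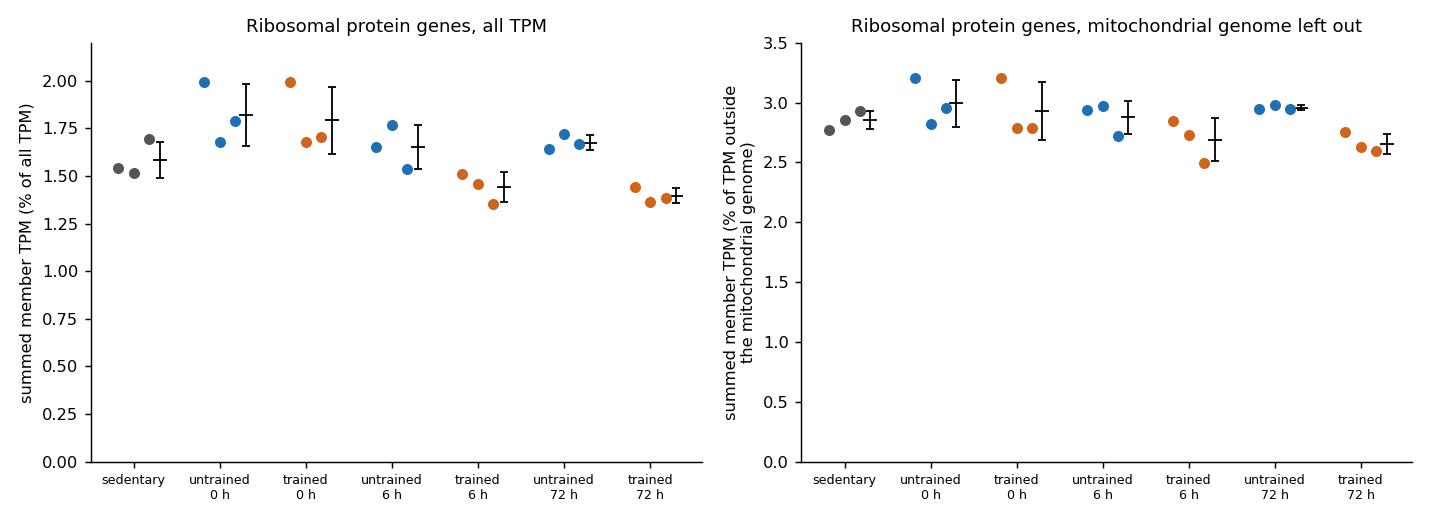
Summed TPM of the 83 members as a percentage of all TPM in each library, and as a percentage of the TPM outside the mitochondrial genome, by group, with a point for each library and the group mean ± SD (n = 3) beside it. The trained 72 h libraries lie at 1.37% to 1.44% of all TPM, below the sedentary libraries at 1.52% to 1.69%.

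Directly after exercise (0 h), which addresses the immediate response to the bout, most members sat slightly above sedentary muscle and 1 of them, Rps2, passed the adjusted p threshold alone (1.28%, against 6.49% of all genes higher at untrained 0 h). Differences here and below come from limma on log2(TPM + 0.5) with Benjamini-Hochberg adjustment over all 11819 tested genes, and a gene was called when its adjusted p was below 0.05 and its change at least 1.5-fold. At untrained 0 h, 0 of 78 members were called (3.59% of all tested genes were), with 44 higher and 0 lower at an unadjusted p below 0.05 (21% and 3.2% of all genes). The log2 difference was above 0 for 75 of 78 members (70.7% of all genes), with a median of 0.21, a fold of 1.16, against 0.10 over all genes, and 28 members had every untrained 0 h library above every sedentary one (35.9%, against 22.9% of all genes). At trained 0 h, 0 members were called (3.74% of all genes), 36 were higher at an unadjusted p below 0.05 (24.8% of all genes), and 0 passed the adjusted p threshold alone (9.37% of all genes). The median there was 0.19 against 0.13 over all genes, 75 members lay above 0 (76.3% of all genes), and 25 members did not overlap sedentary muscle (32.1%, against 26.3%). The medians of small- and large-subunit members were 0.20 and 0.22 at untrained 0 h, and 0.17 and 0.20 at trained 0 h. Without the shared library the median was 0.13 at untrained 0 h, beside 0.08 over all genes, and 0.11 at trained 0 h, beside 0.12. The members at an unadjusted p below 0.05 in limma then numbered 11 at untrained 0 h and 8 at trained 0 h, and the shares of all genes were not computed. Rps2 no longer passed the adjusted p threshold at untrained 0 h (0 members, against 4.25% of all genes). At trained 0 h 1 member, Rps3, passed it (against 5.53% of all genes). Rescaling the TPM without the mitochondrial genome and the 10 highest genes moved the medians of all genes at 0 h by over 0.1. They became -0.05 and -0.04, and those of the members 0.04 and 0.003. After it 60 and 43 of 78 members lay above 0, and 1 and 0 had an unadjusted p below 0.05 in limma. The shares of all genes for these counts were not computed. By the adjusted p alone 0 members passed, against 5.3% and 4.94% of all genes. A 95% interval lying within 1.5-fold either way was found for 67 members at untrained 0 h and 71 at trained 0 h.

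Rps2, a small-subunit protein near the entry of the messenger RNA, lies on chromosome 17 at 24939082 to 24940903 on the plus strand (GRCm39). It measured 358, 409 and 389 TPM in sedentary muscle, 502, 469 and 493 TPM at untrained 0 h, 455, 493 and 425 TPM at untrained 6 h, and 453, 476 and 478 TPM at untrained 72 h. In trained muscle it measured 502, 471 and 405 TPM at 0 h, 446, 423 and 451 TPM at 6 h, and 346, 403 and 426 TPM at 72 h. Every untrained library lay above every sedentary library at all 3 times, as did every trained library at 6 h, whereas trained 0 h and trained 72 h overlapped sedentary muscle. At untrained 0 h Rps2 rose by 0.34 on the log2 scale (SE 0.0861, limma with Benjamini-Hochberg adjusted p = 0.0233), under the 1.5-fold threshold. The differences were 0.25 at untrained 6 h, 0.28 at untrained 72 h, 0.25 at trained 0 h and 0.19 at trained 6 h, with limma Benjamini-Hochberg adjusted p = 0.0893, 0.690, 0.0806 and 0.179. Its rise at untrained 0 h lost the threshold without sedentary replicate 1, untrained 0 h replicate 1 or untrained 0 h replicate 3, with limma Benjamini-Hochberg adjusted p = 0.108, 0.0902 and 0.0661, and after rescaling the TPM without the mitochondrial genome and the 10 highest genes it was 0.17, with adjusted p = 0.241. It was 0.22 under median-of-ratios scaling and 0.34 in a model of just both groups, with limma Benjamini-Hochberg adjusted p = 0.187 and 0.0763.

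The other members with separated groups at 0 h did not pass the adjusted p threshold. Rps15a, a small-subunit protein, had the largest difference at untrained 0 h among members whose groups did not overlap, 0.56 with SE 0.384 and limma Benjamini-Hochberg adjusted p = 0.392. Its levels were 132, 322 and 322 TPM in sedentary and 396, 328 and 341 TPM in untrained 0 h libraries, so sedentary replicate 1 alone was far below, and without it the difference was 0.14. Rpl36a, a large-subunit protein, came next with 49.0, 55.3 and 54.8 TPM in sedentary and 66.0, 73.8 and 82.8 TPM in untrained 0 h libraries, a difference of 0.48 with limma Benjamini-Hochberg adjusted p = 0.0679. When the rows of its near-identical pseudogene copies were added to it, the difference of Rpl36a turned to -0.19. At trained 0 h the corresponding members were Rpl12, with 72.9, 55.5 and 75.3 TPM in sedentary against 98.9, 77.6 and 82.4 TPM in trained 0 h libraries, and Rpl35, with 88.4, 91.5 and 102 TPM against 127, 104 and 114 TPM. Their log2 differences were 0.35 and 0.29 (limma Benjamini-Hochberg adjusted p = 0.283 and 0.735), and that of Rpl12 was 0.21 without sedentary replicate 2.

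At 6 h post-exercise, untrained muscle lay close to the sedentary level and trained muscle below it. In untrained muscle 0 members were called (4.42% of all tested genes), 2 were higher at an unadjusted p below 0.05 (13.4% of all genes), and 0 passed the adjusted p threshold alone (9.47%). The median log2 difference was 0.05 against 0.01 over all genes, with 68 members above 0 (53.1% of all genes). After the same rescaling it was -0.02, beside -0.05 over all genes. Then 28 members lay above 0, and the share of all genes was not computed. Without rescaling, the small median of 0.05 moved between 0.01 and 0.10 when a library was left out. It was lowest without untrained 6 h replicate 2 and highest without untrained 6 h replicate 3. The 2 members whose libraries all lay above the sedentary ones (2.56%, against 11.7% of all genes) were Rps2 and Rps3. Rps3 measured 110, 120 and 106 TPM at untrained 6 h against 98.0, 98.3 and 104 TPM in sedentary muscle, a difference of 0.16 with limma Benjamini-Hochberg adjusted p = 0.256. In trained muscle at 6 h, 0 members were called (3.85% of all genes) and 74 of 78 lay below the sedentary level (52.9% of all genes), with a median of -0.13, a fold of 0.916, against -0.01 over all genes. An unadjusted p below 0.05 was found for 15 lower members and 1 higher one (12% and 12.1% of all genes), and 16 members had every trained 6 h library below every sedentary one (20.5%, against 15% of all genes), while 1 lay wholly above (1.28%, against 13.9%), which was Rps2. The median was -0.07 without trained 6 h replicate 3.

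Rpl36 and Rplp1 were the 2 members that passed the adjusted p threshold at trained 6 h (2.56%, against 4.66% of all genes lower). Rpl36, a large-subunit protein encoded on chromosome 17 at 56920355 to 56921505 on the plus strand, measured 362, 320 and 381 TPM in sedentary muscle, 390, 370 and 325 TPM at untrained 6 h and 246, 312 and 258 TPM at trained 6 h. All 3 trained 6 h libraries were thus below all sedentary and untrained 6 h libraries. It fell by 0.39 on the log2 scale against sedentary muscle (SE 0.106, limma with Benjamini-Hochberg adjusted p = 0.0288). Rplp1, an acidic protein of the stalk that recruits elongation factors, is encoded on chromosome 9 at 61820566 to 61821872 on the minus strand. It measured 541, 508 and 556 TPM in sedentary muscle, 568, 578 and 516 TPM at untrained 6 h and 407, 477 and 429 TPM at trained 6 h, again without overlap. It fell by 0.29 against sedentary muscle (SE 0.0827, limma with Benjamini-Hochberg adjusted p = 0.0335). Both lost the threshold when sedentary replicate 1, sedentary replicate 3, trained 6 h replicate 1 or trained 6 h replicate 3 was left out, with limma Benjamini-Hochberg adjusted p of 0.0910, 0.102, 0.126 and 0.0994 for Rpl36 and 0.0966, 0.101, 0.139 and 0.0980 for Rplp1. Rpl36 kept the threshold under median-of-ratios scaling and Rplp1 did not, with limma Benjamini-Hochberg adjusted p = 0.0430 and 0.0533, whereas after the rescaling 6 members passed it as lower, namely Rpl36, Rplp1, Rps12, Rps21, Rps26 and Rps29. Rps21, another small-subunit protein, lay just outside the threshold with 245, 217 and 264 TPM in sedentary and 195, 214 and 171 TPM in trained 6 h libraries, a difference of -0.33 and limma Benjamini-Hochberg adjusted p = 0.0530. Without sedentary replicate 2, the large-subunit gene Rpl10a was called as lower at trained 6 h, the only member called when any library was left out. Rpl10a measured 122, 88.8 and 133 TPM in sedentary and 103, 80.9 and 65.0 TPM in trained 6 h libraries.

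At 72 h, untrained muscle lay slightly above the sedentary level and trained muscle below it, and no member passed the adjusted threshold in either. In untrained muscle 0 members were called (0.00846% of all tested genes), 2 were higher at an unadjusted p below 0.05 (4.2% of all genes), 74 lay above 0 (62.1% of all genes) with a median of 0.09 against 0.04 over all genes, and 14 members lay wholly above the sedentary libraries (17.9%, against 9.04%). The median was 0.05 without sedentary replicate 2 and 0.14 without sedentary replicate 3. Rpl12, with 80.7, 88.5 and 81.3 TPM, and Rps2 led these 14, and the difference of Rpl12 was 0.31 (limma Benjamini-Hochberg adjusted p = 0.923), or 0.17 without sedentary replicate 2. In trained muscle 0 members were called (0.169% of all genes) and 24 were lower at an unadjusted p below 0.05 (8.39% of all genes), with 0 past the adjusted p threshold alone (0.254%). In 73 members the difference lay below 0 (61.3% of all genes). The median was -0.18, a fold of 0.883, against -0.04 over all genes, and 55 members had every trained 72 h library below every sedentary one (70.5%, against 13.8% of all genes). After rescaling without the mitochondrial genome and the 10 highest genes the median was -0.09, beside 0.03 over all genes. The number of members at an unadjusted p below 0.05 in limma was then 9, or 6 under median-of-ratios scaling. The share of all genes at that p was not computed for these scalings. With either of them 0 members passed the adjusted p threshold, against 0.739% and 0.601% of all genes. The largest differences among those 55 rested on single libraries. Rps9, a small-subunit protein, measured 395, 357 and 416 TPM in sedentary and 343, 329 and 162 TPM in trained 72 h libraries, a difference of -0.56 (limma Benjamini-Hochberg adjusted p = 0.474) that was -0.21 without trained 72 h replicate 3. Rpl7, a large-subunit protein, measured 254, 253 and 274 TPM against 232, 155 and 246 TPM, a difference of -0.33 (limma Benjamini-Hochberg adjusted p = 0.623) that was -0.13 without trained 72 h replicate 2.

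**Figure D3:**
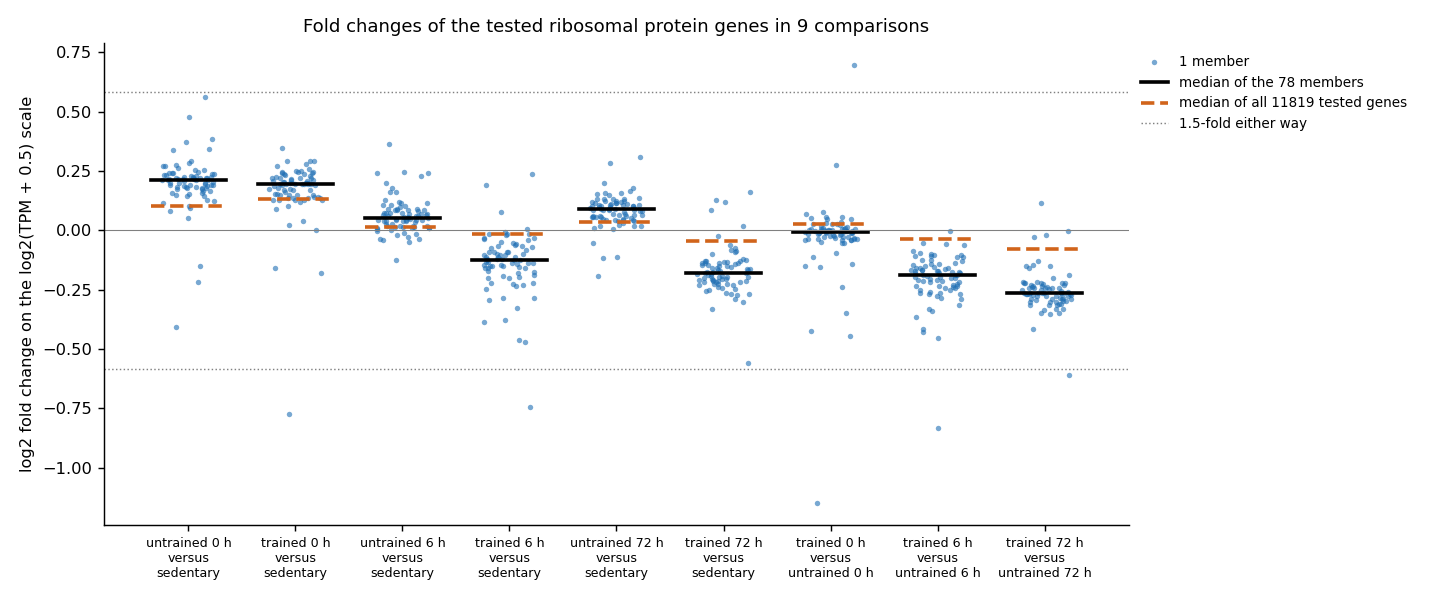
Log2 differences of the 78 tested members in each of the 9 comparisons, on the log2(TPM + 0.5) scale, a point for each member, with solid lines at the median of the members, dashed lines at the median of all 11819 tested genes and dotted lines at 1.5-fold. The medians of the members are 0.21 and 0.19 at 0 h and -0.13 and -0.18 in trained muscle at 6 h and 72 h against sedentary muscle.

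Trained and untrained muscle were next compared at the same time after exercise, which addresses whether muscle after the bout differs with training. No trained mice were sampled without the bout. A lasting effect of training and a changed response to the bout therefore cannot be told apart, here or in trained against sedentary muscle. At 0 h the groups share a library, so no member could be separated; 0 of 78 were called (0% of all genes), 1 was lower at an unadjusted p below 0.05 in limma (0.296% of all genes), and the median was -0.01 against 0.03 over all genes. At 6 h the trained mean lay below the untrained mean for all 78 members (58.3% of all genes did), with a median of -0.19, a fold of 0.877, against -0.04 over all genes. In limma 0 were called (2.01% of all genes), 30 were lower at an unadjusted p below 0.05 (11.8% of all genes), and 35 did not overlap (44.9%, against 11.5% of all genes). Rpl36 and Rplp1 passed the adjusted p threshold (2.89% of all genes did, lower), with differences of -0.41 (SE 0.106, limma with Benjamini-Hochberg adjusted p = 0.0364) and -0.34 (SE 0.0827, limma with Benjamini-Hochberg adjusted p = 0.0272). Rpl36 lost it without untrained 6 h replicate 1, untrained 6 h replicate 2, trained 6 h replicate 1 or trained 6 h replicate 3, with limma Benjamini-Hochberg adjusted p = 0.0760, 0.122, 0.147 and 0.119. Rplp1 lost it without untrained 6 h replicate 2, trained 6 h replicate 1 or trained 6 h replicate 3, with limma Benjamini-Hochberg adjusted p = 0.114, 0.114 and 0.0876. After rescaling without the mitochondrial genome and the 10 highest genes the median at 6 h was -0.10, beside 0.04 over all genes. An unadjusted p below 0.05 in limma was then found for 17 members, and the share of all genes was not computed. Rplp1 but not Rpl36 passed the adjusted p threshold (limma Benjamini-Hochberg adjusted p = 0.0366 and 0.0533), which 6.91% of all genes passed. Under median-of-ratios scaling, without the filter on low genes and in a model of just both groups 0 members passed it in limma, with adjusted p of 0.0660, 0.0744 and 0.277 for Rpl36 and 0.0606, 0.0598 and 0.230 for Rplp1.

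The separation of trained from untrained muscle was widest at 72 h. There 77 of 78 members lay lower in trained muscle (69.5% of all genes), Rps16 being the exception, with a median of -0.26, a fold of 0.833, against -0.08 over all genes. In limma 0 were called (0.245% of all genes) and 0 passed the adjusted p threshold alone (0.415%), while 62 were lower at an unadjusted p below 0.05 (12.8% of all genes) and 68 had every trained library below every untrained one (87.2%, against 24.6% of all genes). Small- and large-subunit members had medians of -0.27 and -0.26, and 73 of the 78 lay within 0.2 of the members' median. The median lay between -0.28 and -0.24 with any 1 of the 6 libraries left out, and was -0.15 after rescaling without the mitochondrial genome and the 10 highest genes. The number of members at an unadjusted p below 0.05 in limma was then 37, and 30 under median-of-ratios scaling. The share of all genes at that p was not computed for these scalings. With either of them 0 members passed the adjusted p threshold, against 0.382% and 0.305% of all genes. After the rescaling the median of all genes was 0.02. The named members at 72 h were Rps9, with 394, 403 and 409 TPM in untrained and 343, 329 and 162 TPM in trained libraries, and the stalk gene Rplp2, with 151, 146 and 156 TPM against 118, 113 and 108 TPM. Rps9 differed by -0.61 (limma Benjamini-Hochberg adjusted p = 0.330), or -0.26 without trained 72 h replicate 3. Rplp2 differed by -0.42 (limma Benjamini-Hochberg adjusted p = 0.241), and by -0.21 with its copy rows added. Rplp1 showed 533, 559 and 570 TPM in untrained and 484, 443 and 446 TPM in trained 72 h libraries, a difference of -0.28 with limma Benjamini-Hochberg adjusted p = 0.140. Rpl36 showed 323, 378 and 387 TPM against 316, 307 and 282 TPM, a difference of -0.26 with limma Benjamini-Hochberg adjusted p = 0.257. Both genes thus lay wholly lower in trained muscle at 72 h as at 6 h, without passing the test.

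**Figure D4:**
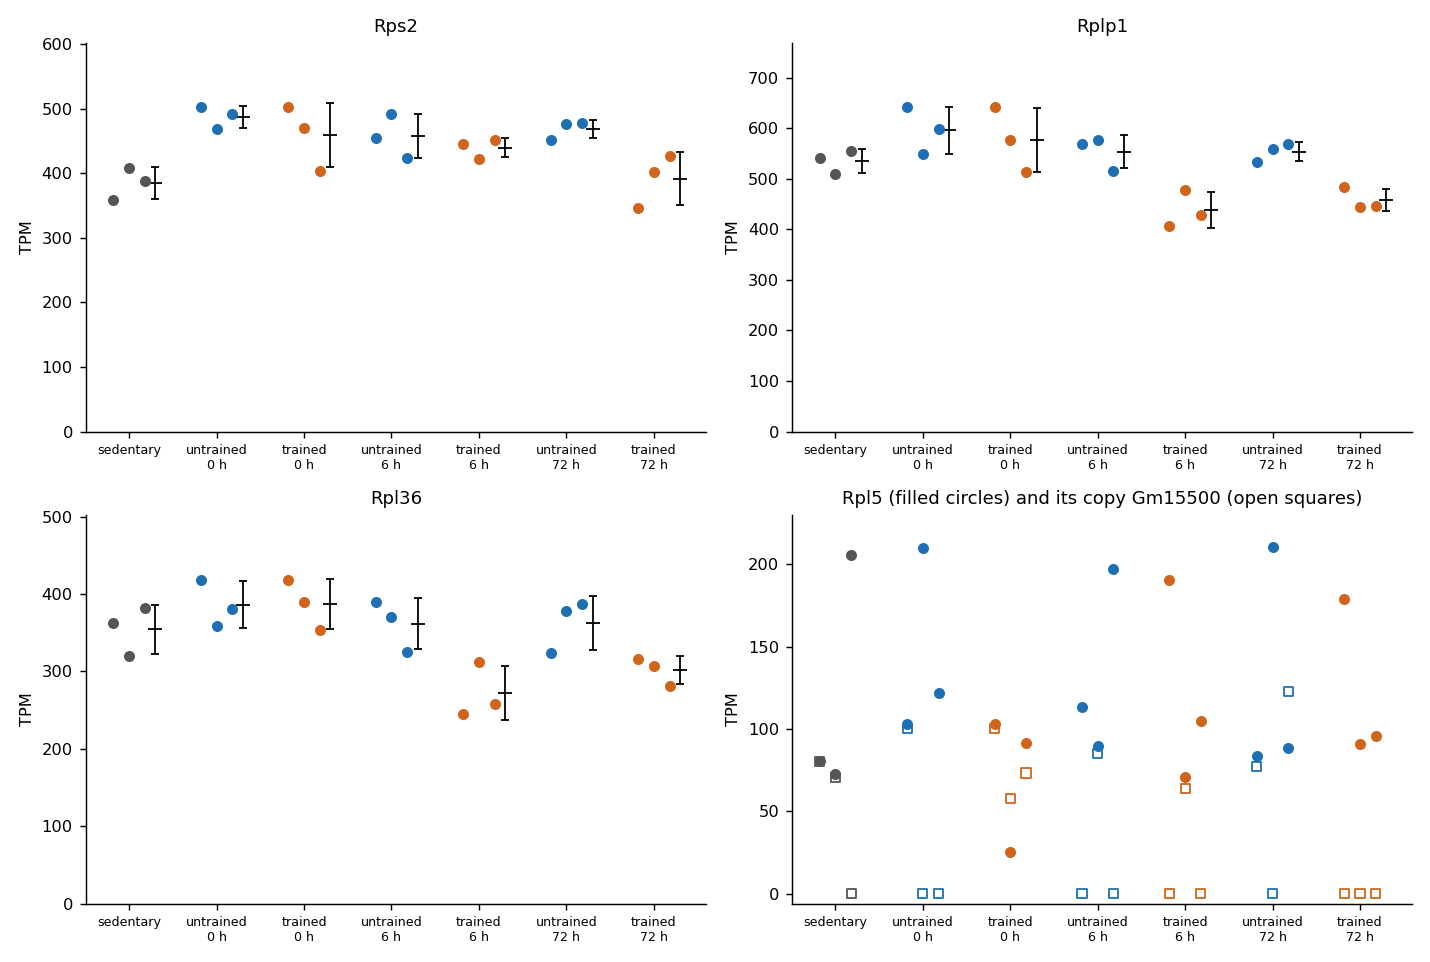
TPM of Rps2, Rplp1 and Rpl36 in every library by group, with the group mean ± SD (n = 3), and of Rpl5 with its copy Gm15500 as open squares. For Rplp1 the trained 6 h libraries lie at 407 to 477 TPM, below the sedentary libraries at 508 to 556 TPM, and the Rpl5 libraries at 179 to 210 TPM are ones in which Gm15500 is at 0.

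The 5S particle, in which Rpl5 and Rpl11 bind the 5S ribosomal RNA, combined a steady and an unsteady gene. Rpl11 measured 256, 218 and 273 TPM in sedentary muscle, 317, 269 and 297 TPM at untrained 0 h, 254, 279 and 244 TPM at untrained 6 h and 260, 271 and 272 TPM at untrained 72 h. In trained muscle it measured 317, 269 and 294 TPM at 0 h, 244, 233 and 195 TPM at 6 h, and 220, 214 and 233 TPM at 72 h. Its trained libraries lay wholly below the untrained ones at 6 h and 72 h, with differences of -0.21 and -0.27 (limma Benjamini-Hochberg adjusted p = 0.251 and 0.214). Rpl5, on chromosome 5 at 108048367 to 108058471 on the plus strand, measured 80.6, 72.9 and 206 TPM in sedentary muscle, 103, 210 and 122 TPM at untrained 0 h, 113, 89.7 and 197 TPM at untrained 6 h and 83.6, 210 and 88.8 TPM at untrained 72 h. In trained muscle it measured 103, 25.2 and 91.7 TPM at 0 h, 190, 71.1 and 105 TPM at 6 h, and 179, 91.2 and 95.6 TPM at 72 h. High and low libraries of Rpl5 occurred in nearly every group, and its SE of 0.574 was the widest of the members.

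In 11 of the 20 distinct libraries Gm15500, a copy row of Rpl5 with a mean of 39.6 TPM, was listed at 0, and Rpl5 lay at 91.2 to 210 TPM in these. In the other 9 the copy lay at 57.7 to 123 TPM and Rpl5 at 25.2 to 103 TPM. The sum of the pair still ranged from 82.9 TPM in trained 0 h replicate 2 to 212 TPM in untrained 72 h replicate 3. Among other members with an expressed copy at 0 in some libraries, Rpl36a, Rpl17 and Rplp2 had ranges that did not overlap, and were chosen here after their values were seen. Rpl36a lay at 71.9 to 82.8 TPM in the 3 libraries with Rpl36a-ps2 at 0 and at 41.6 to 66.0 TPM in the other 17. Rpl17 lay at 109 and 111 TPM in the 2 libraries with Rpl17-ps3 at 0 and at 62.5 to 89.2 TPM in the other 18, and Rplp2 at 187 TPM in the 1 library with Rplp2-ps1 at 0 and at 102 to 172 TPM in the other 19. For the other such members the ranges with and without the copy overlapped, widely for Rpl37a and Rpl28. Rpl27, for example, lay at 130 to 155 TPM with Gm11518 at 0 and at 95.9 to 150 TPM otherwise. Such genes share reads with their copies, and how the reads were divided between them was not tested, so their values are uncertain.

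This sharing concerned nearly every member by sequence but few by level. Of 31-base stretches in the coding sequence, the median tested member had 96.0% also present elsewhere in the annotated transcripts of other genes, and only 7 of 78 members shared less than 50%, with 0% for Rpl3l as the lowest. Copy rows were found for 81 members, 921 in all, but 45 of these reached a mean of 1 TPM, and together they held 880 TPM against 16199 TPM for the members. Copies exceeded 10% of the level of their member for 12 members and 50% for 5 members, namely Rpl36a, Rpl17, Rpl27a, Rplp2 and Rps7. With the copy rows added to their members, the call of no member changed.

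Single libraries stood apart for a few members. Of 1560 member values in the 20 distinct libraries, 20 lay below 60% or above 160% of the median of the other libraries of that gene, and these belonged to 7 members, Rpl5, Rpl10a, Rpl35, Rps9, Rps15a, Rps16 and Rps25. Rpl35 fell to 28.0 TPM in untrained 0 h replicate 2 and 20.7 TPM in trained 6 h replicate 3, against a median of 94.9 TPM. Rps15a was at 132, 154, 167 and 128 TPM in sedentary replicate 1, untrained 72 h replicate 2, trained 0 h replicate 3 and trained 72 h replicate 3, against 313 TPM. Rps16 was at 135, 152 and 148 TPM in sedentary replicate 2, untrained 0 h replicate 3 and untrained 6 h replicate 1, against 78.1 TPM. Low and high values of these genes thus did not follow the groups. Rps25 was at 93.0 TPM in untrained 0 h replicate 2, the library in which its copy Rps25-ps1 was at 168 TPM.

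Members with a paralogue of restricted use showed unequal pairs. Rpl3l, encoded on chromosome 17 at 24946751 to 24955119 on the plus strand, 5847 bases beyond Rps2, was the main form in every library. It measured 209, 190 and 211 TPM in sedentary muscle, 253, 218 and 226 TPM at untrained 0 h, 205, 200 and 185 TPM at untrained 6 h and 202, 204 and 212 TPM at untrained 72 h. In trained muscle Rpl3l measured 253, 226 and 221 TPM at 0 h, 179, 183 and 188 TPM at 6 h, and 190, 178 and 187 TPM at 72 h. It was thus wholly above the sedentary libraries at 0 h in both untrained and trained muscle, and wholly below them at trained 6 h. Rpl3, encoded on chromosome 15 at 79961988 to 79967607 on the minus strand, measured 22.0, 22.9 and 24.5 TPM in sedentary muscle, 25.8, 22.3 and 24.0 TPM at untrained 0 h, 24.3, 32.0 and 26.7 TPM at untrained 6 h and 25.9, 27.0 and 24.7 TPM at untrained 72 h. In trained muscle Rpl3 measured 25.8, 23.3 and 27.1 TPM at 0 h, 25.5, 22.3 and 20.2 TPM at 6 h, and 22.2, 21.4 and 22.8 TPM at 72 h. Its libraries overlapped between most groups.

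The level of Rpl3l was 6.24 to 9.80 times that of Rpl3 over all libraries. Mean ratios with SD (n = 3) were 8.79 ± 0.643 in sedentary muscle, 9.67 ± 0.219 and 9.22 ± 0.924 at 0 h, 7.21 ± 1.13 and 8.18 ± 1.13 at 6 h, and 7.98 ± 0.524 and 8.35 ± 0.187 at 72 h, for untrained and trained muscle in turn. The largest difference of the log2 ratio from sedentary muscle was -0.29 at untrained 6 h. In 9 two-sided exact permutation tests p ranged from 0.2 to 0.7, and from 0.514 to 0.7 after Benjamini-Hochberg adjustment, where 3 against 3 libraries cannot give less than 0.1, so that no difference could pass a threshold of 0.05 in these tests.

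**Figure D5:**
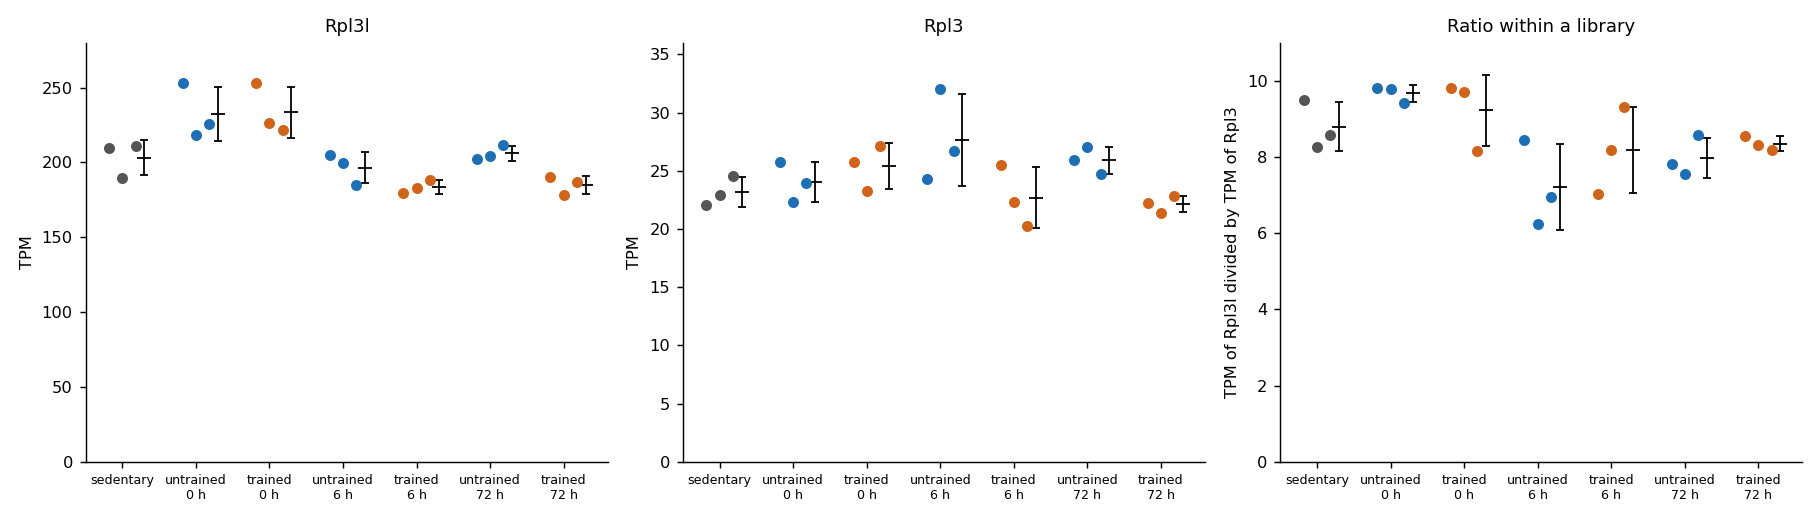
Levels of Rpl3 and Rpl3l in TPM and their ratio in every library, by group, with a point for each library and the group mean ± SD (n = 3) beside it. Rpl3l exceeds Rpl3 in all libraries, by a ratio of 6.24 to 9.80.

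The other pairs were Rps27 and Rps27l, which are both broadly expressed, and Rpl10 with Rpl10l, Rpl39 with Rpl39l and Rps4x with Rps4l, of which Rpl10l and Rpl39l are known mainly from testis. Rps27 measured 227 to 374 TPM and Rps27l 59.2 to 96.4 TPM over the libraries, the highest of both in the library shared at 0 h and the trained libraries of both wholly below the untrained ones at 72 h (differences of -0.23 and -0.31, limma Benjamini-Hochberg adjusted p = 0.321 and 0.144). Rpl10 measured 194 to 316 TPM, Rpl39 60.3 to 110 TPM and Rps4x 146 to 211 TPM, while Rpl10l, Rpl39l and Rps4l were at means of 0.05, 0.28 and 0 TPM. Against untrained muscle at 72 h, Rpl10, Rpl39 and Rps4x differed by -0.35, -0.30 and -0.23, with limma Benjamini-Hochberg adjusted p = 0.116, 0.238 and 0.205 and no overlap between the libraries of either group.

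Genes that act around the ribosome were described from lists of pathway members. Of 10 ribosomal protein genes outside the symbol rule, 7 were tested and 0 passed an adjusted threshold in limma in any comparison, with 4 and 3 higher at an unadjusted p below 0.05 at untrained and trained 0 h and 2 lower at trained 72 h, and with medians of 0.21 and 0.20 at untrained and trained 0 h, -0.14 at trained 6 h and -0.17 at trained 72 h. Of 17 tested genes of RNA polymerase I and ribosomal RNA transcription, Polr1e, a subunit of that polymerase, was called at untrained 6 h with 0.67 (limma with Benjamini-Hochberg adjusted p = 0.0364), and 1, 4, 2 and 0 passed the adjusted p threshold upward at untrained 0 h, trained 0 h, untrained 6 h and trained 6 h. Of 54 nucleolar assembly factors, Nop2 and Ppan were called at untrained 6 h, by 0.76 and 0.62 (limma with Benjamini-Hochberg adjusted p = 0.00109 and 5.25e-05), and Nop2 and Rrp12 at trained 6 h, by 0.71 and 0.65 (limma with Benjamini-Hochberg adjusted p = 0.00198 and 0.000898). Upward passes of the adjusted p threshold numbered 6, 9, 11 and 9 of the 54 in the same order of groups, and Dkc1, the pseudouridine synthase, fell by 0.42 at trained 6 h (limma with Benjamini-Hochberg adjusted p = 0.0118). Over all tested genes 6.49%, 8.68%, 6.68% and 5.72% passed the adjusted p threshold upward in these 4 groups. At an unadjusted p below 0.05, 25 assembly factors were higher and 1 lower at untrained 6 h, and 15 higher and 4 lower at trained 6 h.

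Of 35 translation initiation factors, the helicase gene Eif4a1 was called at trained 0 h and untrained 6 h, both by 0.59 (limma with Benjamini-Hochberg adjusted p = 0.00324 and 0.00303), and the poly(A)-binding protein gene Pabpc1 at untrained 6 h by 0.59 (limma with Benjamini-Hochberg adjusted p = 0.0151). These lie at the 1.5-fold limit, and with a pseudocount of 1 the call of Eif4a1 was lost. Of 11 elongation and termination factors 0 were called at any time, 7, 6, 3 and 1 were higher at an unadjusted p below 0.05 in the same order of groups, and 2 passed the adjusted p threshold upward at each of untrained 0 h, trained 0 h and untrained 6 h in limma. Of 26 tested genes of mTORC1 signalling, Ddit4, a stress-induced inhibitor of the complex, was called in all 4 groups at 0 h and 6 h, with 4.10 and 4.26 at untrained and trained 0 h and 1.78 and 1.72 at 6 h, and Mtor, the kinase itself, at trained 6 h with 0.71 (limma with Benjamini-Hochberg adjusted p = 0.000455). At 72 h 0 genes of these lists were called against sedentary muscle in limma, with at most 1 higher and 5 lower genes of a list at an unadjusted p below 0.05.

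Markers of muscle fibres were high in all libraries, with 9 of 9 genes tested and sums of 55170 to 76148 TPM, highest at 0 h, where the summed share of the members was highest too. Myh1 was called at trained 0 h (0.64), where 5 of the 9 were higher and 0 lower at an unadjusted p below 0.05 in limma. Mb was called in trained against untrained muscle at 6 h (0.73), but the median of the 9 was -0.10 there. In that comparison 2 fibre markers were higher and 1 lower at the same unadjusted p. Macrophage markers, 7 of 8 tested, summed to 49.6 to 54.6 TPM at untrained 0 h and 49.6 to 50.1 TPM at trained 0 h, to 35.2 to 74.2 TPM at untrained 6 h and 33.3 to 48.8 TPM at trained 6 h, and to 56.9 to 61.5 TPM at untrained 72 h and 41.7 to 47.9 TPM at trained 72 h, with 39.5 to 43.4 TPM in sedentary muscle. Cd68 was called at untrained 6 h (1.62) and 72 h (1.53) and, lower in trained muscle, between the trained and untrained groups at 6 h (-1.47) and 72 h (-1.24), and Csf1r at untrained 6 h (0.61) and between the groups at 6 h (-0.78). The summed macrophage markers thus lay above the sedentary libraries at 0 h, where the share of the members was highest. At 72 h the sum was lower in trained than untrained muscle, as the members were, with 1 of the 7 tested markers lower at an unadjusted p below 0.05. The sum at trained 72 h overlapped the sedentary libraries, whereas the share of the members lay below them. The part of macrophages in these differences was not tested. Kdr, 1 of 5 tested endothelial markers, was called at untrained 0 h (-0.66) and trained 0 h (-0.59). Of 5 fibro-adipogenic markers, Ly6a was called at untrained 6 h (0.62) and Col1a1 and Col3a1 at trained 6 h (-0.91 and -1.35). These markers went both ways, with 1 higher and 1 lower, and 1 higher and 2 lower, at an unadjusted p below 0.05 in limma. Their medians were -0.02 and -0.12. Their sums were 261 to 298 TPM at trained 6 h and 261 to 300 TPM in sedentary muscle. Satellite cell, red blood cell and adipocyte markers had 0 calls in limma, although 4 of 5 red blood cell markers were higher at untrained 72 h at an unadjusted p below 0.05. Markers of neutrophils and of T and B cells summed to at most 1.56 and 1.10 TPM. Of these genes 0 reached the mean of 1 TPM needed for a test.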

How the data were processed

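Bulk RNA of quadriceps was sequenced after preparation with the TruSeq RNA Library Prep Kit v2, for which no strand setting is given in the sources used here. Per the labels, the authors' processing named STAR 2.7.9, Salmon 1.5.0 and DESeq2 3.16 and the build GRCm39; the deposited values are TPM per gene symbol, made by the authors. TPM are relative to the other transcripts of a library and hold no read depth, so no counting interval can be given, and the p-values measure the spread between libraries.

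Groups came from the sample labels. A gene was tested when its mean reached 1 TPM, which kept 11819 of 53738. The test was limma 3.58.1 in R 4.3.3, applied to log2(TPM + 0.5), which understates changes of low genes, in 1 model of 7 groups with 14 residual degrees of freedom, a mean trend and Benjamini-Hochberg adjustment within each of 9 comparisons. The library shared by both 0 h groups entered each of them. A call needed adjusted p below 0.05 and a change of at least 1.5-fold. The pipeline was tested on simulated data. Ratios of Rpl3l to Rpl3 were tested by exact permutation over samples (Python 3.11.15, scipy 1.17.1). Copy rows were genes with a Gm or -ps symbol sharing at least 10% of a member's 31-base coding stretches. Named members were those called, in each comparison the 2 largest rises and falls without overlap between groups, paralogue pairs, stalk and 5S genes, the 5 highest and 5 lowest levels, and the 3 largest and smallest spreads of the group means; Rpl36 and Rplp1 also passed the adjusted p threshold. Members and lists, pathway and cell type markers included, were chosen with earlier results of these data known. Same-numbered replicates correlated between -0.07 and 0.13 outside the shared library, so numbers were not treated as pairs. Alternatives covered the pseudocount, the filter, 2 scalings, the model, each library left out and, chosen after seeing the data, copy rows added to their member. The values of 1 tested member are counted in all totals but not reported here by name.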

Additional observations from a re-analysis of the deposited data

Results flagged for a closer look

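Rpl36 and Rplp1 passed a direct test of the difference between trained and untrained muscle at 6 h, and lost it under several alternatives. In trained against untrained 6 h libraries, Rpl36 differed by -0.41 and Rplp1 by -0.34 on the log2 scale (limma with Benjamini-Hochberg adjusted p = 0.0364 and 0.0272), with all 3 trained libraries below all 3 untrained ones. Both were under the 1.5-fold threshold. With 1 of the 6 libraries left out, Rpl36 lost the adjusted p threshold in 4 cases and Rplp1 in 3. Neither passed it under median-of-ratios scaling, without the filter on low genes or in a model of just both groups, and Rpl36 also lost it after rescaling without the mitochondrial genome and the 10 highest genes and with the replicate block.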

How the results depend on the processing

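The number of members called was 0 of 78 in all 9 comparisons under both other pseudocounts, without the filter, under both scalings, in models of just the compared groups and with the replicate block. Without a fold threshold it became 1 at untrained 0 h, 2 at trained 6 h and 2 for trained against untrained 6 h. With each library left out in turn it ranged from 0 to 1 at trained 6 h against sedentary muscle, the 1 being Rpl10a without sedentary replicate 2, and stayed at 0 in the other 8 comparisons. The median of the members at untrained 0 h against sedentary was 0.090 under median-of-ratios scaling and 0.040 when rescaled without the mitochondrial genome and the highest 10 genes. At trained 0 h against sedentary it was 0.042 and 0.0030, and for trained against untrained 72 h -0.17 and -0.15, while the rescaling gave -0.10 for trained against untrained 6 h. The only reversed value was that of Rpl36a at untrained 0 h, -0.19 with copy rows added (limma Benjamini-Hochberg adjusted p = 0.617). In models of just the compared groups, 9 members passed the adjusted p threshold for trained against untrained 72 h (against 0.533% of all genes). None passed it in the other comparisons. Without the filter Rpl36 and Rplp1 lost it in both of theirs. Under median-of-ratios scaling 1 member, Rpl36 at trained 6 h against sedentary (14% of all genes there), passed it in the 9 comparisons. After the rescaling 6 passed it there (13.1% of all genes) and 1, Rplp1, for trained against untrained 6 h (6.91% of all genes). Rps2 at untrained 0 h lost it under both scalings. The replicate block left the medians as they were, and with it Rps2 at untrained 0 h, Rpl13 at trained 0 h, Rpl36, Rplp1 and Rps21 at trained 6 h, and Rpl13 and Rplp1 for trained against untrained 6 h passed the adjusted p threshold. With the block, 6.79%, 8.74%, 9.93% and 4.15% of all genes passed it in these comparisons, in that order. The cause of these shifts was not tested. Log2 differences under the alternatives were also followed for single genes, both named members and called genes of the pathway lists. Of these values, 426 kept direction and call, 29 kept the direction but lost the call, and 1 reversed. The 29 all belonged to pathway-list genes, as no member was called to begin with. All 72 values of the log2 ratio of Rpl3l to Rpl3 lay within the pooled SD of the main value, without regard to their sign.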
